A study of Mus musculus with 16 samples.

Results

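The PARP and tankyrase family was followed in mouse quadriceps muscle through 10 genes, taken from the deposited count table by gene name: Parp1, Parp2, Parp3, Parp4, Parp6, Parp8, Parp14, Parg, Tnks and Tnks2. These are 10 of the 45706 genes in the table, each found in 1 row. Polyadenylated RNA had been sequenced in 16 libraries, 8 from mice that lack Nampt in skeletal muscle only (KO) and 8 from wild types (WT). The labels give no age, sex, strain or litter, and do not name the promoter or Cre line that removed the gene. Nothing there says that replicates came from separate mice, so p-values measure only the spread between these libraries. Totals ran from 16065394 to 51881258 estimated counts per library, and the RNA integrity numbers in the labels from 8.2 to 8.8. Levels below are CPM, read counts scaled to library size with TMM factors. Fold changes are KO over WT, and a gene is said to have passed where its Benjamini-Hochberg adjusted p, over all tested genes, was under 0.05 in edgeR's quasi-likelihood test.

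Except for Parg, a hydrolase that removes such marks, enzymes of this family take NAD apart and attach its ADP-ribose to proteins or nucleic acids, releasing nicotinamide. Some build long chains, poly(ADP-ribose), most of all at DNA strand breaks, and others attach single units. NAMPT turns the released nicotinamide back into a precursor of NAD, so the deleted gene and these NAD-using enzymes stand at opposite ends of 1 cycle. Skeletal muscle relies on this recycling for much of its NAD, and the study's title concerns its loss in ageing muscle.

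Nampt averaged 73.4 ± 9.30 CPM in KO, against 141.4 ± 12.0 CPM in WT (SD, n = 8 each). The KO libraries lay between 60.4 and 88.7 CPM and the WT libraries between 125.5 and 161.1 CPM, with no overlap (edgeR log2 fold change -0.95, adjusted p = 9.68e-07). Whole-tissue RNA includes cells that keep the gene, and in bulk samples fewer cells of a type and less RNA per cell cannot be told apart. The source of the Nampt counts that remained in KO was not tested. The muscle fibre markers Ckm, Acta1, Myh4, Myh1, Mb and Tnnt3 together held from 124300 to 147000 CPM in KO, against 124900 to 152500 CPM in WT. The 5 lymphocyte markers summed to 0.289 to 0.530 CPM in KO, against 0.0988 to 0.562 CPM in WT.

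Several members start beside a gene on the other strand, where reads could be assigned wrongly if strand was ignored in counting. The labels call the libraries stranded, and the counting setting is not given in the sources used here. RefSeq promoter windows (GRCm38.p6, from 250 bases before to 50 after the start) were found for 8 of the 10 members, all but Parp14 and Tnks. The windows of Parp2 and Parg are shown because their neighbours start nearest. Exon bases of the neighbour are in capitals, Rpph1 for Parp2 and Timm23 for Parg. Both are 5′ to 3′ on the plus strand, chr14:50807666-50807965 for Parp2 and chr14:32201699-32201998 for Parg.
Parp2: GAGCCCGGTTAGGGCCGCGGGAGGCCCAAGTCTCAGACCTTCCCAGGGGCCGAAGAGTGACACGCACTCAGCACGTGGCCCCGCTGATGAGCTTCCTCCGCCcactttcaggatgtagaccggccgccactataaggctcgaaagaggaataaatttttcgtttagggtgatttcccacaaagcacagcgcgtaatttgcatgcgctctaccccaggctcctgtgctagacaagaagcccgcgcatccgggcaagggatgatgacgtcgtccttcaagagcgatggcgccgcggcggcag
Parg: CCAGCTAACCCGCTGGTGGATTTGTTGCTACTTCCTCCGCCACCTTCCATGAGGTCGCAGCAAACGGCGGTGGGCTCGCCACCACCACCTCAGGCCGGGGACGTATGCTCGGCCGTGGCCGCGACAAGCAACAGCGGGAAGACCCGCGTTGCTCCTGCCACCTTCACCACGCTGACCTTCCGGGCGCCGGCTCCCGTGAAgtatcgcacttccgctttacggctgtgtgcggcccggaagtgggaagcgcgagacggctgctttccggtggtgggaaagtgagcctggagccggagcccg

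In the GENCODE vM21 annotation of the same build, the starts of Parp2 and Rpph1 are 74 bases apart and those of Parg and Timm23 are 51 bases apart, and neither pair shares exon bases. The starts of Parp4 and Cenpj are 194 bases apart. Ccnb1ip1, another gene on the other strand beside Parp2, had 0 counts. Rpph1 is the RNA of ribonuclease P, which carries no poly(A) tail, and Timm23 is a channel of the mitochondrial inner membrane. The Parp2 window holds 25 CpG dinucleotides and 1 match to the octamer ATGCAAAT on either strand, a motif added to the search after the window was read and present in 1.74% of all 32851 RefSeq windows. The Parg window shown holds 31 CpG dinucleotides and 2 matches to the ETS motif CCGGAAG, which is in 8.86% of all windows and in no window of the other 7 members. Over the 8 members, searched on both strands, the GC box GGGCGG was in 5, against 35.7% of all windows. The CCAAT box was in 3, against 37.4%, and the TATA box TATAAA in 0, against 13.6%. An interferon-type motif, GAAA, any 2 bases and GAAA again, was in the window of Parp4 alone, against 3.44% of all windows, and the NRF1 motif in none, against 0.971%. A match in these letters is a description and not a site.

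None of the 10 members passed between KO and WT, against 0.0435% of the 13792 tested genes (0.0218% higher and 0.0218% lower in KO). DESeq2 and limma also called 0 of the 10. At an unadjusted p under 0.05, 1 member was counted in the edgeR fit, Parp14, higher in KO, against 4.02% of all tested genes higher and 9.57% in both directions. Log2 fold changes ran from -0.13 in Parp3 to 0.22 in Parp14, with a median of -0.03 against 0.00 over all tested genes. They were above 0 in 4 members, Parp2, Parp4, Parp8 and Parp14, against 51.8% of all tested genes. For all 10 the 95% interval stayed under 1.5-fold both ways, against 86.2% of tested genes, and the widest bound of any member was a log2 fold change of 0.43, 1.35-fold. The KO and WT ranges overlapped in every member. The share of all tested genes whose ranges overlapped was not counted, so this is no trait of the family.

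**Figure D1:**
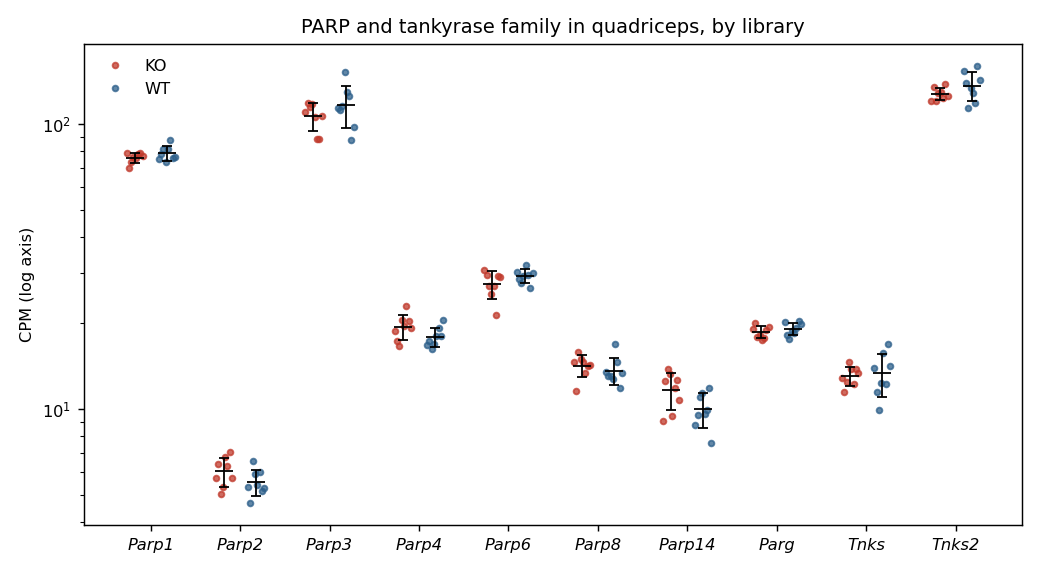
CPM of the 10 members (log axis) in each of 8 KO and 8 WT libraries, with the mean and SD as black bars. KO and WT libraries overlap in every member, and Parp3, Tnks2 and Parp1 hold the highest CPM.

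**Figure D2:**
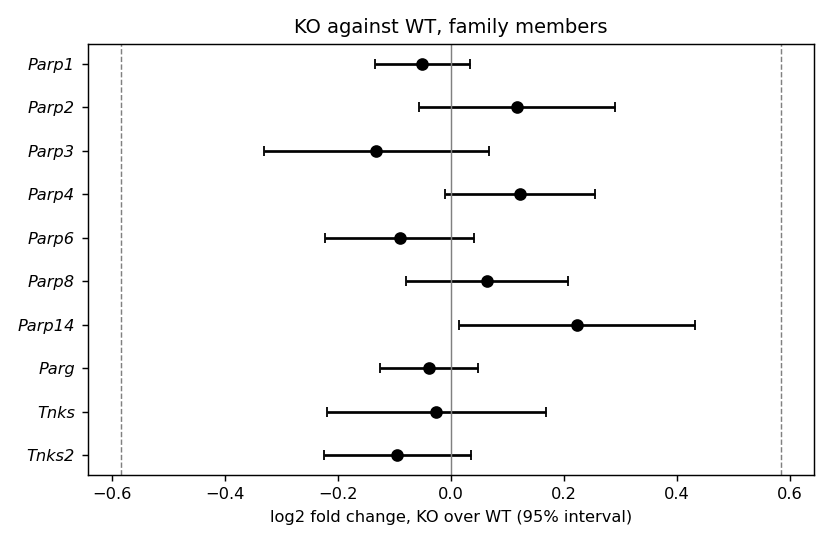
Log2 fold change of KO over WT for the 10 members with 95% intervals from edgeR; dashed lines mark a 1.5-fold change. All intervals lie inside the dashed lines, and that of Parp14 alone does not cross 0.

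The DNA-break-dependent enzymes Parp1, Parp2 and Parp3 had overlapping KO and WT ranges, and none passed. Parp1, the main builder of poly(ADP-ribose) at strand breaks (chr1:180568924-180601254, plus strand, GRCm38), ran from 69.9 to 78.9 CPM in KO with a median of 76.7 and from 73.3 to 87.9 CPM in WT with a median of 77.4. Its means were 76.0 ± 3.06 CPM in KO, against 78.8 ± 4.76 CPM in WT (SD, n = 8 each). KO libraries thus lay within or just below the WT range, and the log2 fold change was -0.05 with a 95% interval of -0.14 to 0.03 (edgeR adjusted p = 0.740). Without WT replicate 6 it was -0.03.

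Parp2 (chr14:50807841-50821301, plus strand), which shares part of the repair work of Parp1, had the lowest minimum count of the 10. It ran from 5.05 to 7.07 CPM in KO with a median of 6.02 and from 4.67 to 6.55 CPM in WT with a median of 5.37. Of the KO libraries 6 of 8 lay above the WT mean, and the log2 fold change was 0.12 with an interval of -0.06 to 0.29 (edgeR adjusted p = 0.704). Without KO replicate 7 it was 0.08. The estimated counts behind these values were 105 to 362 per library. Rpph1, its divergent neighbour, had 0.846 ± 0.774 CPM in KO, against 0.242 ± 0.216 CPM in WT (SD, n = 8 each).

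Parp3 (chr9:106470322-106476949, minus strand) attaches single ADP-ribose units at double-strand breaks. Of the 10 it had the highest biological coefficient of variation in edgeR, a measure explained below for Parg, at 0.138 against 0.133 for Parp14. Parp3 ran from 88.1 to 118.6 CPM in KO with a median of 108.4 and from 87.4 to 151.3 CPM in WT with a median of 114.3. Its means were 106.2 ± 12.0 CPM in KO, against 116.4 ± 19.6 CPM in WT (SD, n = 8 each), and the log2 fold change was -0.13 with an interval of -0.33 to 0.07. The highest WT value belonged to replicate 4, and without that library the fold change was -0.07 on the log2 scale, against -0.18 without WT replicate 7, the lowest. Rrp9, a small nucleolar RNA-binding protein gene on the other strand, shares 20 exon bases with Parp3 and had 11.5 CPM in KO, against 12.1 CPM in WT.

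Parg (chr14:32201949-32297550, plus strand), the hydrolase that takes poly(ADP-ribose) chains down, was among the steadiest genes of the tissue. No KO library was above the WT maximum, and KO ran from 17.5 CPM in replicate 5 upwards with a median of 18.5. WT ran from 17.6 to 20.3 CPM with a median of 19.0. The log2 fold change was -0.04 with an interval of -0.13 to 0.05 (edgeR adjusted p = 0.819), and was -0.02 without WT replicate 7. Its biological coefficient of variation, the spread between libraries beyond counting error as edgeR estimates it, was 0.0564, and 2.35% of tested genes had a lower one. That coefficient was 0.0655 for Parp1 and 0.138 for Parp3, against a median of 0.102 over all tested genes, and the other 7 members lay between 0.0867 and 0.133.

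Timm23, which starts beside Parg, had 164.1 CPM in KO, against 173.3 CPM in WT. With the genotype means removed, Parg and Timm23 correlated with r = 0.27 and rho = 0.22 over 16 libraries (permutation p = 0.326 and 0.426), which did not pass. Parp3 with Rrp9 (r = -0.29) and Parp4 with its divergent neighbour Cenpj (r = -0.25) did not pass either, with an adjusted permutation p of 0.348 over these 3 pairs for each. These 3 pairs were chosen after the annotation was read.

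Of the tankyrases, which attach poly(ADP-ribose) to proteins such as axin and mark them for removal, Tnks2 was above Tnks per kilobase of exon in every library, with means of 12.2 CPM per kilobase in KO and 13.1 in WT for Tnks2, and 0.876 in KO and 0.895 in WT for Tnks. Tnks2 (chr19:36834232-36893477, plus strand) ran from 119.8 to 138.2 CPM in KO with a median of 126.5 and from 114.0 to 159.6 CPM in WT with a median of 135.9. Of the KO libraries 7 of 8 lay below the WT mean, and the log2 fold change was -0.09 (interval -0.22 to 0.04, edgeR adjusted p = 0.676). Without WT replicate 7 it was -0.06. Tnks (chr8:34826460-34965690, minus strand) ran from 11.5 to 14.6 CPM in KO with a median of 13.1 and from 9.92 to 16.9 CPM in WT with a median of 13.1. Its log2 fold change was -0.03 (edgeR adjusted p = 0.962), and was above 0 with limma and without WT replicate 5 or 7. WT replicate 7 was the highest WT library for both tankyrases and WT replicate 3 the lowest for both.

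The ratio of Tnks2 to Tnks counts, which does not depend on how libraries are scaled, was 9.81 ± 0.885 in KO, against 10.4 ± 1.27 in WT (SD, n = 8 each). The difference in mean log2 ratio was -0.07 (exact two-sided permutation p = 0.362, adjusted p = 0.544 over 3 ratios). The ratio of Parg to Parp1, of the chain-removing enzyme to the main chain builder, was 0.245 ± 0.0184 in KO, against 0.243 ± 0.0223 in WT (SD, n = 8 each), with an exact permutation p of 0.849 before and after adjustment. The ratio of Parp2 to Parp1 was 0.0795 ± 0.00963 in KO, against 0.0704 ± 0.00696 in WT (SD, n = 8 each). It differed by 0.17 on the log2 scale (exact permutation p = 0.0486), which did not pass over the 3 ratios (adjusted p = 0.146). These are ratios of counts and not of molecules, since the genes differ in length.

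The exons of Tnks overlap 635 bases of Gm9939, a non-coding RNA annotated at its promoter on the other strand, and Gm9939 had 5 counts over all 16 libraries. The antisense gene Gm16573 overlaps 335 exon bases of Parp4 and had 1 count in all libraries.

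Among the members that attach single units or whose activity is less well known, Parp14 (chr16:35832874-35871544, minus strand) had the largest fold change of the 10. PARP14 is a large macrodomain protein known from immune cells for its part in interferon and interleukin signalling. In KO it ran from 9.03 CPM in replicate 1 to 13.8 CPM in replicate 3 with a median of 12.2. In WT it ran from 7.60 CPM in replicate 8 to 11.9 CPM in replicate 7 with a median of 9.77. Of the KO libraries 6 of 8 lay above the WT mean of 9.96 ± 1.42 CPM (SD, n = 8), and the KO mean was 11.7 ± 1.74 CPM (SD, n = 8). The log2 fold change was 0.22, 1.17-fold, with an interval of 0.015 to 0.43, an unadjusted p of 0.0372 and an adjusted p of 0.477 (edgeR), so the difference did not pass over all genes. Over 28 alternatives the adjusted p spanned 0.255 to 0.678 and the log2 fold change from 0.18 to 0.33, the highest without KO replicates 1, 3, 5 and 8. These carried 24.7 to 41.2 CPM of Rpph1, Rmrp and Rn7sk together, RNAs without a poly(A) tail. That fit left out KO libraries only, and WT replicate 8, with 18.2 CPM of those RNAs, was kept. With the summed level of those RNAs as a covariate, added after seeing the data, the log2 fold change was 0.32.

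Parp4 (chr14:56575619-56659794, plus strand), the PARP of the vault particle, ran from 16.7 to 22.9 CPM in KO with a median of 19.4 and from 16.2 to 20.5 CPM in WT with a median of 17.6 (log2 fold change 0.12, interval -0.01 to 0.26). Its adjusted p was 0.561 by edgeR. Parp6 (chr9:59617284-59650285, plus strand), a mono-ADP-ribosyltransferase known from mouse neurons for a role in dendrite growth, ran from 21.4 to 30.8 CPM in KO with a median of 28.0 and from 26.6 to 31.9 CPM in WT with a median of 29.4. Its lowest value was that of KO replicate 6, and the log2 fold change was -0.09, or -0.05 without that library. Parp8 (chr13:116854820-117025537, minus strand) ran from 11.6 to 15.8 CPM in KO with a median of 14.4 and from 11.9 to 16.8 CPM in WT with a median of 13.2 (log2 fold change 0.06, interval -0.08 to 0.21). Without KO replicates 1, 3, 5 and 8 its log2 fold change was -0.003, and it was 0.11 without WT replicate 5 and 0.04 without WT replicate 7.

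Per kilobase of annotated exon, Parp3 stood highest in both genotypes, at 28.7 ± 3.25 CPM per kilobase in KO, against 31.5 ± 5.29 in WT (SD, n = 8 each). Parp1 followed with 14.4 ± 0.577 in KO and 14.9 ± 0.900 in WT, and Tnks2 with 12.2 ± 0.632 in KO and 13.1 ± 1.51 in WT. Parp6, Parg and Parp4 formed a middle step between 2.48 and 4.11 CPM per kilobase over all libraries. Parp2, Parp8, Parp14 and Tnks lay between 0.666 and 1.95, and Tnks, at 0.876 in KO and 0.895 in WT, stood lowest in both genotypes by this length. Ranges over the 16 libraries did not overlap between Parp3 and Parp1, between Tnks2 and Parp6, or between Parp4 and Parp2. The other 6 neighbouring pairs in this order overlapped, and Parp2 was above Parp8 in 8 of 16 libraries. The length used matters for the finer order: with the longest transcript of each gene, Parp1 and Tnks2 stood at 19.6 each in KO and at 20.3 and 21.0 in WT, and Parp8 moved above Parp4. Tnks was then above Parp14 in WT, at 1.45 for Tnks and 1.34 for Parp14, and below it in KO, at 1.42 for Tnks and 1.57 for Parp14. By the mean length of coding transcripts Tnks ranked 7, Parp4 9 and Parp14 10 of the 10.

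**Figure D3:**
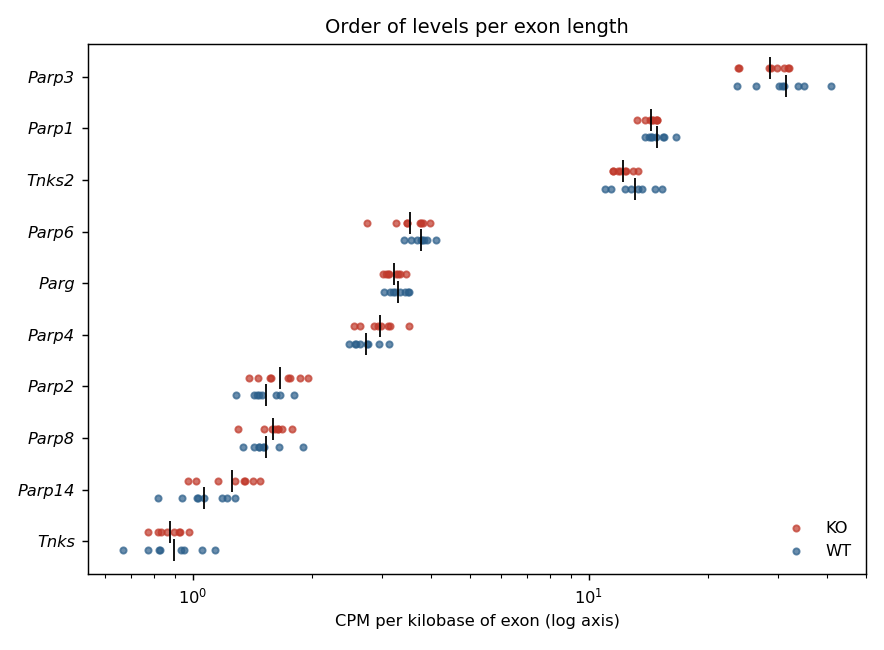
CPM per kilobase of annotated exon (log axis) for the 10 members in each KO and WT library, ordered by mean; black ticks are group means. Parp3 lies above all others, and gaps with no overlap also follow Tnks2 and Parp4.

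Counted in CPM and not per length, the 10 genes summed to 419.8 ± 11.6 CPM in KO, against 439.6 ± 16.8 CPM in WT (SD, n = 8 each). Differences between KO and WT in this sum, and in the shares of it below, were not tested. Parp3, Tnks2 and Parp1 together held 73.7 ± 0.706% of that sum in KO and 75.3 ± 0.986% in WT, and these 3 were picked for their level after it was seen. Parp14 held 2.78 ± 0.408% in KO and 2.27 ± 0.334% in WT.

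Between libraries, no relation among members passed. With genotype means removed, 0 of the 45 member pairs passed a permutation test over 16 libraries with Benjamini-Hochberg adjustment, and 5 had an unadjusted p under 0.05. The 2 tankyrases correlated with r = 0.61 and rho = 0.42 (permutation p = 0.0471 and 0.152, adjusted p = 0.449 and 0.621). That relation rests on WT replicates 3 and 7, without which r was 0.17. Parg and Tnks2 had r = 0.61 and rho = 0.57 (permutation p = 0.0178 and 0.0307, adjusted p = 0.449 for each), and r was 0.59 without KO replicate 5 and WT replicate 7. Parp1 and Tnks2 had r = -0.59 and rho = -0.59 (permutation p = 0.0342 and 0.0319, adjusted p = 0.449 for each), and -0.45 without the 2 libraries farthest from the median of Parp1. All values share the same library scaling.

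With Nampt itself, whose level varies within each genotype too, none of the 10 members showed a correlation that passed. The values of r ran from -0.16 for Parp4 to 0.54 for Parp6, and the lowest adjusted permutation p of the 10 was 0.24, over a family of 15 relations. Parp6 and Nampt had r = 0.65 in KO alone and 0.20 in WT alone.

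Parp14 was set beside its chromosomal neighbours Parp9 and Dtx3l, which encode a PARP family member and the ubiquitin ligase it pairs with, and beside the mean of 21 interferon-response genes. Parp14 and the interferon mean had r = 0.70 and rho = 0.64 over 16 libraries with genotype means removed (permutation p = 0.00492 and 0.0116, adjusted p = 0.0738 and 0.174 over 15 relations), so the relation did not pass. It was 0.62 in KO alone and 0.78 in WT alone, and 0.59 without KO replicate 3 and WT replicate 8, the libraries farthest from the median. Over the alternatives the adjusted p ran from 0.0048, without KO replicate 7, to 0.407, without KO replicates 1, 3, 5 and 8. With Parp9 r was 0.55 (rho 0.43, adjusted permutation p = 0.193 and 0.419) and with Dtx3l 0.54 (rho 0.50, adjusted permutation p = 0.193 and 0.419). Dtx3l is also 1 of the 21 interferon genes.

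**Figure D4:**
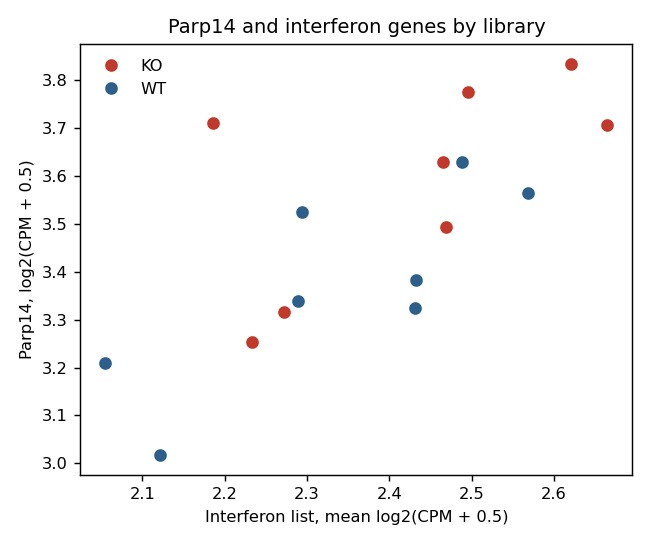
Parp14 against the mean of 21 interferon-response genes, both as log2(CPM + 0.5), 1 point for each of 8 KO and 8 WT libraries. Libraries high in the interferon mean tend to be high in Parp14 within both genotypes, with KO replicate 7 high in Parp14 (3.71) at a low interferon mean (2.19).

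Parp2 and Rpph1 had r = -0.26 (rho -0.27, adjusted permutation p = 0.808 and 0.73), and r was -0.02 without KO replicate 7 and WT replicate 2. Parp8, set beside the mean of 6 macrophage markers, had r = 0.15 (rho 0.17, adjusted permutation p = 0.924 and 0.915).

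For each member the gene of most similar pattern over the 16 libraries was taken among 12238 genes with a mean of at least 1 CPM, by Pearson r after genotype means were removed. This picks a maximum over many genes and is a description. The values ran from 0.79 for Parp2, with Laptm4a, to 0.945 for Tnks2, with Pcmtd1. Without the 2 libraries farthest from the median of the member, r was lowest for Parp1 with Nrbp1, at 0.591 against 0.844 over all libraries, and for Parp8 with Kmt2e, at 0.686 against 0.83. Parp3 was most like Inha, the inhibin alpha subunit gene (r = 0.916, rho = 0.938, and r = 0.921 without WT replicates 4 and 7). Parp4 was most like Ezh1, a histone methyltransferase gene (r = 0.882, rho = 0.791), and Tnks most like Ubr3, a ubiquitin ligase gene (r = 0.88, rho = 0.815). For Tnks r was 0.706 without WT replicates 3 and 7. Parp6 was most like Ncdn (r = 0.894), Parp14 most like Mob1a (r = 0.828) and Parg most like Bcl2l13 (r = 0.853).

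Genes that work with the family were described through 6 lists with 66 genes, of which 65 were tested. None passed in the edgeR fit without covariates or with limma. With DESeq2, which gave no adjusted p for 20 of them, 2 passed, Xrcc5 and Macrod1. DESeq2 called 96 of the 13792 tested genes, 15 higher and 81 lower in KO, where the edgeR fit called 6. Xrcc5 also passed with edgeR when the summed level of the list of RNAs without a poly(A) tail was a covariate. That fit called 16 of all tested genes, 4 higher and 12 lower in KO. Xrcc5 did not pass when Rpph1, Rmrp and Rn7sk alone were summed as the covariate. At an unadjusted p under 0.05 there were 9 in the edgeR fit, 5 higher and 4 lower, 13.8% of those tested against 9.57% of all tested genes.

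Of 12 tested strand-break repair partners, 0 passed, 2 had an unadjusted p under 0.05, both lower against 5.55% of all tested genes, and the median log2 fold change was -0.01. Xrcc5, the larger Ku subunit that binds double-strand ends, had 31.7 ± 3.26 CPM in KO, against 39.8 ± 3.97 CPM in WT (SD, n = 8 each). All 8 KO libraries lay below the WT mean, at 26.3 to 35.9 CPM against 34.6 to 46.5 CPM in WT, and the ranges overlapped. Its log2 fold change was -0.33 with an interval of -0.47 to -0.18 (edgeR adjusted p = 0.119, DESeq2 adjusted p = 0.0033). With the summed list of RNAs without a poly(A) tail as covariate the log2 fold change was -0.36 (edgeR adjusted p = 0.0414). Much of that sum was 1 histone gene, Hist1h1c. Its KO mean was 135.6 CPM where the list summed to 196.7 to 263.2, and its WT mean 132.9 where it summed to 170.2 to 259.7. Whether the histone transcripts counted here lacked a tail was not tested. With Rpph1, Rmrp and Rn7sk alone as covariate, added after seeing the data, Xrcc5 had -0.37 and did not pass (edgeR adjusted p = 0.150). Xrcc5 passed with DESeq2 and with the list covariate only, 2 of 28 alternatives. Over all 28 the adjusted p ran from 0.0033 to 0.317. Xrcc1, the scaffold that poly(ADP-ribose) draws to single-strand breaks, had 12.6 ± 0.705 CPM in KO, against 13.6 ± 0.801 CPM in WT (SD, n = 8 each; edgeR log2 fold change -0.11, adjusted p = 0.463). Polb, the repair polymerase, named for its mean CPM, had a log2 fold change of -0.05 (edgeR adjusted p = 0.772).

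Of 9 genes that remove ADP-ribose units or break down ADP-ribose, 0 passed. An unadjusted p under 0.05 was found for 3 of the 9, where 9.57% of all tested genes had one. Of these 2 were higher and 1 lower, and the median of the list was -0.035. Macrod1, a mitochondrial mono-ADP-ribose hydrolase abundant in muscle, lay from 118.5 to 127.6 CPM in KO, against 124.0 to 139.3 CPM in WT, and all 8 KO libraries were below the WT mean. Its log2 fold change was -0.13 with an interval of -0.20 to -0.07 (edgeR adjusted p = 0.166, DESeq2 adjusted p = 0.00326), and over the alternatives the adjusted p reached 0.337. Its relative Macrod2 had 7.85 ± 1.06 CPM in KO, against 6.92 ± 0.528 CPM in WT (SD, n = 8 each; edgeR log2 fold change 0.18, adjusted p = 0.448). Nudt16, a hydrolase that can cut ADP-ribose attached to proteins, had 5.34 ± 0.624 CPM in KO, against 4.36 ± 0.577 CPM in WT, with all 8 KO libraries above the WT mean (edgeR log2 fold change 0.29, adjusted p = 0.273). Nudt9, an ADP-ribose pyrophosphatase, had a log2 fold change of -0.07.

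Of 14 partners and substrates of tankyrase, 0 passed and 1, Usp25, had an unadjusted p under 0.05, lower in KO, against 5.55% of all tested genes lower. The median was -0.04. USP25 is a deubiquitinase that stabilises tankyrases in human cells. Usp25 had 102.0 ± 10.5 CPM in KO, against 117.5 ± 8.78 CPM in WT (SD, n = 8 each), with all 8 KO libraries below the WT mean (edgeR log2 fold change -0.20, adjusted p = 0.273). Amotl1, of the angiomotins that tankyrase marks, was named for its mean CPM, 745.5 CPM in KO, against 806.0 CPM in WT, with a log2 fold change of -0.11 (edgeR adjusted p = 0.665).

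The 7 other PARP genes gave 0 that passed and 1 at an unadjusted p under 0.05, Parp10, against 4.02% of all tested genes higher. The fold change was above 1 in 6 of the 7, against 51.8% of all tested genes, and the median on the log2 scale was 0.11. Parp10, a mono-ADP-ribosyltransferase, had 6.04 ± 0.881 CPM in KO, against 5.30 ± 0.495 CPM in WT (SD, n = 8 each; edgeR log2 fold change 0.19, adjusted p = 0.504). Tiparp, induced by the aryl hydrocarbon receptor, and Zc3hav1, an antiviral RNA-binding protein gene, had log2 fold changes of 0.11 and 0.12. Of the vault genes that share a particle with the product of Parp4, Tep1 had 20.4 ± 1.95 CPM in KO, against 18.3 ± 0.984 CPM in WT (SD, n = 8 each; edgeR log2 fold change 0.16, adjusted p = 0.333), and Mvp, the major vault protein gene, had a log2 fold change of 0.05. The 21 interferon genes gave 0 that passed with edgeR, with 15 above 0 on the log2 scale, against 51.8% of all tested genes, and a median of 0.14. Dtx3l had a log2 fold change of -0.001, which turned sign under 13 of 28 alternatives.

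Markers of other cell types were measured beside these groups. All 5 endothelial and all 5 smooth muscle and pericyte markers were above 0 on the log2 scale, against 51.8% of all tested genes. At an unadjusted p under 0.05, 2 endothelial and 3 smooth muscle and pericyte markers were higher, against 4.02% of all tested genes. The endothelial list had sums of 217.0 to 250.6 CPM in KO against 196.1 to 225.9 CPM in WT. The smooth muscle and pericyte list summed to 323.1 to 386.4 CPM in KO and 312.5 to 351.9 CPM in WT. The 6 macrophage markers summed to 67.6 to 157.4 CPM in KO and 69.6 to 162.0 CPM in WT, and were all above 0 in log2 fold change. The 3 satellite cell markers summed to 3.84 to 6.29 CPM in KO and 3.60 to 5.43 CPM in WT. All 3 were above 0 in log2 fold change, with a median of 0.26, and 1 was higher at an unadjusted edgeR p under 0.05. The 5 fibro-adipogenic markers summed to 666.7 to 1439 CPM in KO and 676.6 to 1237 CPM in WT, with 3 above 0. The 3 adipocyte markers summed to 12.1 to 33.3 CPM in KO and 12.9 to 31.7 CPM in WT, with 2 above 0. None of these markers passed with edgeR, and none was at 0 in all libraries. Their part in the values of Parp14 or the partner genes was not tested.

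**Figure D5:**
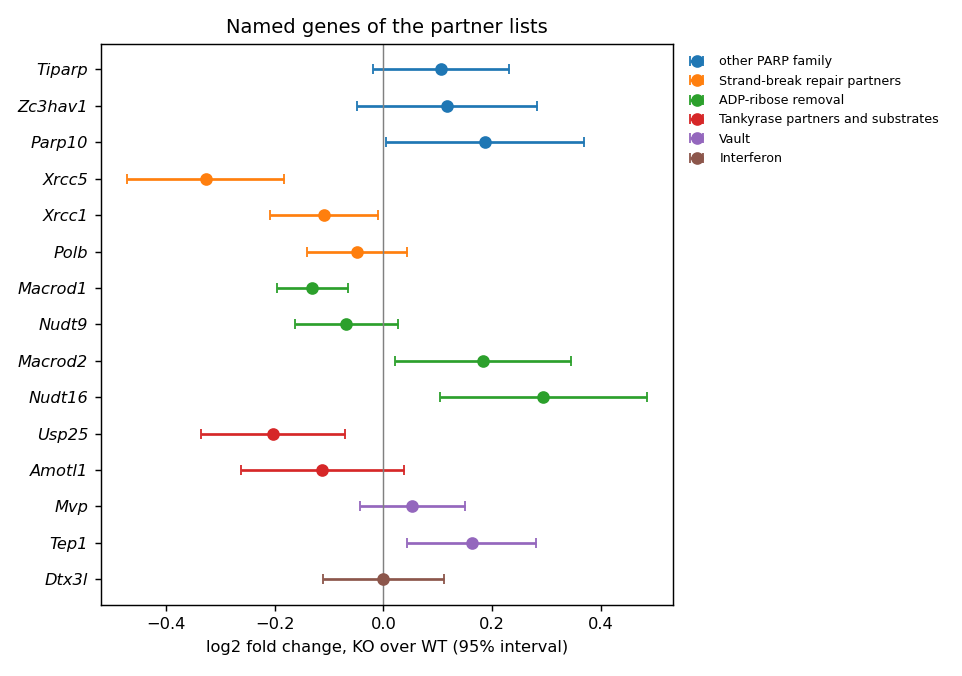
Log2 fold change of KO over WT with 95% intervals from edgeR for 15 genes of the 6 partner lists, coloured by list. Xrcc5, Macrod1, Xrcc1 and Usp25 lie below 0 with their whole interval and Nudt16, Tep1, Macrod2 and Parp10 above it; none passed over all genes. These 15 were named for an unadjusted p under 0.05 in the same fit or for their mean CPM. For the genes named by p, an interval off 0 follows from that choice.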

How the data were processed

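Quadriceps RNA was sequenced with 52 bp paired-end reads. The submitters' processing notes name bcl2fastq 4.0.3, STAR, Salmon and GRCm38; no source used here gives the annotation release or says whether counting used strand. The authors deposited 1 table of estimated counts per gene, unscaled for depth; of its values 11.1% were not whole (beyond 0.0005) and all were rounded here. Columns were mapped through the labels, and 0 columns matched no library. Within a genotype, the most similar libraries differed by a chi-square per degree of freedom of 8.71 in KO and 10.2 in WT, so all 16 were kept.

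KO and WT were compared over all genes with edgeR 4.0.16 (R 4.3.3; TMM, default low-count filter, quasi-likelihood F test, no covariate). The filter left 13792 genes, the 10 members among them. Standard errors were taken from the fold change and F statistic. Correlations used log2(CPM + 0.5) and 100000 permutations within genotype. Ratios used exact tests over 12870 assignments, with 0.5 added to each count. Exon lengths and neighbours came from GENCODE vM21, which held 98.8% of the gene identifiers. Hpf1 was matched through an older name. On simulated KO and WT counts over 13792 genes, 44% of genes changed 1.25-fold and 82% changed 1.5-fold were recovered, and 95.3% of intervals held the true value. In the simulation 50 genes were changed at each of 1.25, 1.5, 2 and 3-fold, all with a mean of at least 1 CPM. The real fit called 6 genes, so its adjusted p cutoff was stricter. The simulated shares therefore do not give the share recovered in the data.

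The members and the lists were chosen with earlier results of these data known. All members and Nampt are named; of each partner list, genes with an unadjusted p under 0.05 and the 2 with the highest mean CPM; for each member, the gene of most similar pattern. A gene that this rule also names is not reported here. Alternatives were DESeq2 1.42.0, limma 3.58.1, other scalings, filters and covariates, a replicate block, and leaving out libraries. Intervals cover counting error and the spread between libraries.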

Additional observations from a re-analysis of the deposited data

Results flagged for a closer look

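KO replicate 2 stood apart from the other KO libraries in the ratio of Tnks2 to Tnks counts, at 11.7 where the next highest KO library had 10.1. The same library stood apart in the ratio of Parg to Parp1, at 0.286 against 0.252 in the next. Without it the Parg to Parp1 difference changed sign, to -0.021 on the log2 scale. The library was also the shallowest of the 16, with 16065394 estimated counts. A gap of more than 0.526 of the range of a group was looked for in 26 groups of 8 libraries, and chance gives such a gap in about 1 group of 20. The gaps were 0.54 and 0.588 of the range.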

How the results depend on the processing

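The members called stayed at 0 in all 28 alternative fits, and the median log2 fold change of the members stayed within 0.048, the spread between libraries, of -0.032, from -0.05 without WT replicate 2 to 0.006 without WT replicate 7. The number of genes called over the whole table, 6 as reported, was 2 with DESeq2 size factors, with library totals only, with the replicate block, without KO replicates 1, 3, 5 and 8 and with a covariate for Rpph1, Rmrp and Rn7sk (added after seeing the data). It was 3 with no low-count filter, 16 with the covariate for the list of RNAs without a poly(A) tail, 96 with DESeq2, and between 2 and 8 when 1 library was left out. The order of members per kilobase had 3 gaps without overlap, 4 with either other length, and the order itself changed with the length: by mean coding length Parp8 ranked 6, Tnks 7 and Parp4 9. Xrcc5 passed with DESeq2 and with the covariate for the list of RNAs without a poly(A) tail (adjusted p = 0.0033 and 0.0414), and Macrod1 with DESeq2 (adjusted p = 0.00326). With the covariate for Rpph1, Rmrp and Rn7sk, Xrcc5 did not pass (edgeR adjusted p = 0.150). No pair of members passed under any alternative, including the replicate block. The labels do not say whether same-numbered libraries were paired, and a pairing was not excluded. Residual correlations of same-numbered libraries ran from -0.0981 to 0.237. The medians with libraries of other numbers ran from -0.0481 to 0.0342. Of the KO libraries 2 of 8 correlated best with the WT library of their own number, and the block changed no member's call. The fixed relations that passed numbered 0 as reported, 3 with library totals only (Parp14 with Parp9, Dtx3l and the interferon mean), and between 0 and 1 when 1 library was left out (1 without KO replicate 7, Parp14 with the interferon mean). The Parg to Parp1 ratio changed sign when 1 of 4 libraries was left out, and over all such fits ran from -0.021 to 0.033. Parp8 was -0.003 without KO replicates 1, 3, 5 and 8, and Tnks 0.006 with limma and between -0.082 and 0.036 with 1 library left out. Dtx3l, -0.001 as reported, was 0.008 with upper quartile scaling, 0.014 with library totals, 0.001 with the filter of 1 CPM in 8 libraries, 0.007 with RIN, 0.002 and 0.024 with the covariates for RNA without a poly(A) tail, 0.036 without KO replicates 1, 3, 5 and 8, and ran from -0.022 to 0.027 with 1 library left out. The causes were not tested. Parp2 and Parp14, at 105 to 609 counts per library, had the lowest minimum counts of the members; their standard errors of 0.083 and 0.099 (log2) lie beside 0.095 for Parp3, at 1792 to 6356 counts.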
